A study of Homo sapiens with 8 samples.

Results

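The Hippo pathway was covered by 120 single guide RNAs (sgRNAs) against 20 genes, taken as every guide whose target gene is one of those 20 in a count table of 119461 guides. Each gene had 6 guides, and 118 of the 120 had enough counts to be tested. The screen was a genome-wide CRISPR-Cas9 knockout screen with the human GeCKOv2 library in MB157R, a γ-secretase inhibitor-resistant triple-negative breast cancer (TNBC) line with a stable Cas9 transgene. It asked which knockouts change growth when Notch is inhibited pharmacologically. Transduced MB157R cells were selected with puromycin for 4 days and combined into 1 pool. In the GSI group, 3 cultures of that pool were kept with the γ-secretase inhibitor LY3039478 at 10 µM until day 14. In the DMSO group, 3 further cultures were kept with vehicle until day 14. The T0 group was 2 untreated cell aliquots of the same pool, taken before the cultures were split. All 8 libraries therefore carry the Cas9 transgene, the resistance of MB157R and 1 shared transduction, and p-values measure the spread between cultures or aliquots of 1 line.

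The Hippo pathway is a kinase cascade that restrains growth in epithelial tissues. Its core kinases, STK3 and STK4 (also called MST2 and MST1) and LATS1 and LATS2, act with their adaptors to phosphorylate the coactivators YAP1 and WWTR1 (TAZ), which are then held in the cytoplasm or degraded. Unphosphorylated YAP1 and WWTR1 enter the nucleus and switch on genes through the TEAD transcription factors, and in breast cancer cells high YAP1 or WWTR1 activity is known for its ties to growth and stem cell traits. The 20 genes were therefore read as effectors, which promote target gene expression (YAP1, WWTR1 and TEAD1 to TEAD4, 36 guides), and as upstream members (the other 14 genes, 84 guides, of which 82 were tested). AMOT was kept with the upstream members, although angiomotins bind YAP1 directly. A knockout that slows growth lowers the share of its guides in a culture, and a knockout that speeds growth raises it.

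Total counts ran between 12.1 M and 18.2 M per library. The 120 Hippo guides held between 0.0990% and 0.117% of the counts in 7 libraries and 0.0584% in GSI replicate 1, where 1 guide outside the pathway took 38.8% of all counts. Normalized counts below are raw counts divided by median-ratio size factors, which use the typical guide and leave that one with little weight. No Hippo guide was at 0 in GSI replicates 1 and 3, 3 were at 0 in GSI replicate 2, and 4, 2 and 3 were at 0 in DMSO replicates 1, 2 and 3. In T0 replicates 1 and 2 the number was 3 and 15, so that 12.5% of the Hippo guides were missing from T0 replicate 2. Of all guides in the library, 5.12% and 11.5% were at 0 in T0 replicates 1 and 2. That share was 2.87%, 3.94% and 2.64% in DMSO replicates 1, 2 and 3, and 0.738%, 2.40% and 1.39% in GSI replicates 1, 2 and 3. Over the 120 guides the rank correlation of raw counts was 0.67 to 0.69 among GSI libraries, 0.47 to 0.61 among DMSO libraries and 0.27 between the T0 aliquots. Over all guides it was 0.69 to 0.75, 0.64 to 0.66 and 0.41. Between a DMSO and a GSI library it was 0.48 to 0.75 over the 120 guides and 0.66 to 0.83 over all guides. Both upper ends came from DMSO replicate 1 with GSI replicate 1, and lay above every pair within a group. These libraries share one pool, and the correlations also carry differences in guide abundance that were present at the start.

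In GSI against DMSO, no Hippo guide passed an adjusted p of 0.05 in edgeR's quasi-likelihood test, nor in DESeq2. Among all guides, 0% of 116852 passed in edgeR and 0% of 116724 in DESeq2. At an unadjusted edgeR p under 0.05, 1 of 118 Hippo guides was lower and 5 were higher with GSI, beside 1.46% lower and 1.55% higher among all guides. Normalized counts of the 3 GSI libraries lay wholly below those of the 3 DMSO libraries for 7 Hippo guides and wholly above for 5, beside 4.36% and 4.72% of all guides. The test of genes was robust rank aggregation (RRA), which asks whether the guides of a gene rank lower, or higher, than guides placed at random. No Hippo gene passed an adjusted p of 0.05 on either side, nor did any of the 18570 genes tested (0% on each side). At an unadjusted RRA p under 0.05, SAV1 was the single Hippo gene on the lower side and TAOK1 the single one on the higher side, beside 5.13% and 5% of all genes. This was 1 gene in 20 on each side, near the share among all genes.

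The median log2 fold change of the 118 Hippo guides in GSI against DMSO was -0.12, beside -0.02 for all tested guides and -0.08 for 999 non-targeting control guides. It was -0.17 over the effectors and -0.11 over the upstream members. The fold change was negative for 62.7% of the Hippo guides, 51.4% of all guides and 57.2% of the non-targeting guides. By role, the median was lowest for the core kinase guides, at -0.18 over 23 guides, and nearest to 0 for the adaptor guides, at -0.02 over 17 guides. Effectors and upstream members differed by less than the SD between GSI libraries of the level of either list, which was 0.10 for each.

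YAP1, the coactivator at the end of the cascade (chr11:102110447-102233424, GRCh38, plus strand), had 5 of 6 guides lower with GSI than with DMSO. Its mean normalized count over guides was 83.3, 94.2 and 90.9 in GSI replicates 1, 2 and 3, against 138, 123 and 112 in DMSO replicates 1, 2 and 3. The groups did not overlap, and by this mean YAP1 was the only Hippo gene with GSI wholly below DMSO, beside 5.86% of all genes. No Hippo gene lay wholly above, beside 3.7% of all genes. The mean was 89.4 ± 5.58 with GSI, 124 ± 13.3 with DMSO and 124 ± 11.7 at T0 (SD over 3, 3 and 2 libraries). YAP1 was also read as a mean of log2(normalized count + 1) over guides. It was then at 6.02, 5.85 and 6.17 with GSI, against 5.98, 6.73 and 5.81 with DMSO, and the groups overlapped. TEAD2 lay wholly below on that scale, at 5.66, 5.73 and 5.76 with GSI, against 6.33, 6.41 and 6.06 with DMSO. The share of all genes that lay wholly below on it was not computed. The median log2 fold change of the YAP1 guides was -0.47 (SD 0.62 over guides, lowest -1.25, highest 0.48), with an RRA p of 0.0887 and an adjusted p of 0.976. With the counts of the guides summed per gene, edgeR gave YAP1 an unadjusted p of 0.0393 and an adjusted p of 1.00. The strongest YAP1 guide, HGLibB_54563, had 55.2, 27.0 and 43.9 normalized counts with GSI, against 133, 48.7 and 117 with DMSO. The groups overlapped for it, and its log2 fold change of -1.25 had an unadjusted edgeR p of 0.0822. The single YAP1 guide on the higher side, HGLibB_54565, was listed at 0 in DMSO replicates 1 and 3 and at 292 normalized counts in T0 replicate 2, beside 2.51 in T0 replicate 1.

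WWTR1, which encodes the coactivator TAZ (chr3:149517235-149736714, GRCh38, minus strand), lay on the other side of 0. It had 4 of 6 guides higher with GSI than with DMSO, a median log2 fold change of 0.32 (SD 0.52 over guides, lowest -0.36, highest 0.87) and an RRA p of 0.0577 on the higher side (adjusted p of 0.965). Its mean normalized count was 90.0, 138 and 107 with GSI, against 91.7, 83.4 and 97.4 with DMSO. These groups overlapped. Among the 20 genes, YAP1 had the third lowest median and WWTR1 the second highest, and the difference between both coactivators was not tested.

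The TEAD genes encode the DNA-binding partners of YAP1 and WWTR1. In GSI against DMSO, TEAD2 had all 6 guides lower (median -0.39, SD 0.47, lowest -1.21, highest -0.01), with an RRA p of 0.304. Its guide HGLibB_48871 had 32.3, 47.7 and 43.9 normalized counts with GSI, against 70.1, 83.1 and 134 with DMSO. GSI lay wholly below DMSO for that guide (log2 fold change -1.21, unadjusted edgeR p of 0.0838), while T0 replicates 1 and 2 were at 237 and 0. TEAD1 had a median of -0.09 with guides between -0.84 and 3.52, and that widest guide, HGLibB_48867, had 13.5, 8.74 and 27.2 normalized counts with GSI, against 1.10, 2.71 and 0 with DMSO, which were 1, 3 and 0 raw counts. TEAD3 had a median of -0.03 (guides between -0.25 and 0.91) and TEAD4 a median of -0.08 (guides between -0.52 and 0.53).

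Among the core kinases, LATS2, which phosphorylates YAP1 and WWTR1, had the lowest median of all 20 genes in GSI against DMSO. It was -0.56 (SD 0.76 over 5 tested guides, lowest -1.96, highest -0.06), and all 5 were lower. The RRA p was 0.0900 (adjusted p of 0.976), with 0.140 when GSI replicate 2 was left out and 0.00292 when GSI replicate 1 was. In GSI replicate 2, 3 LATS2 guides were nearly absent. HGLibA_26066 had 92.9, 0 and 33.4 normalized counts with GSI, against 197, 44.2 and 47.8 with DMSO. HGLibA_26067 had 35.0, 0 and 8.35 with GSI, against 16.4, 121 and 28.5 with DMSO. HGLibA_26068 had 119, 0.795 and 46.0 with GSI, against 162, 46.0 and 34.2 with DMSO. For each of these guides the groups overlapped. LATS1, the paralogue of LATS2, had a median of -0.29 (guides between -2.03 and 0.23). The kinases STK3 and STK4, which activate LATS1 and LATS2, had medians of -0.15 (guides between -0.67 and 0.36) and -0.01 (guides between -0.51 and 1.34).

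Among the adaptors, SAV1, which scaffolds STK3 and STK4, had 4 of 6 guides lower with GSI, a median of -0.49 (SD 0.68, lowest -1.16, highest 0.65) and an RRA p of 0.0352 on the lower side (adjusted p of 0.959). Its guide HGLibA_42786 had 31.0, 46.9 and 26.1 normalized counts with GSI, against 125, 59.6 and 49.0 with DMSO. HGLibB_42732 had 76.8, 72.3 and 61.6 with GSI, against 167, 89.4 and 126 with DMSO. GSI lay wholly below DMSO for both of these guides, whereas HGLibB_42731 had 56.6, 136 and 72.1 with GSI, against 52.6, 85.8 and 29.6 with DMSO. Without DMSO replicate 1 the RRA p of SAV1 was 0.318, and without GSI replicate 3 it was 0.261. MOB1A and MOB1B, coactivators of LATS kinases, had medians of -0.41 (guides between -0.87 and 1.62) and 0.08 (guides between -0.35 and 0.60). The highest MOB1A guide, HGLibB_29543, had 56.6, 207 and 103 normalized counts with GSI, against 29.6, 28.0 and 62.6 with DMSO (log2 fold change 1.62, unadjusted edgeR p of 0.0258). The groups overlapped, and T0 lay near the GSI values at 96.2 and 243.

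Upstream regulators carry signals from membranes and junctions to the core kinases. In GSI against DMSO, NF2, which encodes the tumour suppressor merlin, had a median of 0.05 (guides between -0.28 and 0.55). Its mean normalized count was 139, 140 and 135 with GSI, against 150, 134 and 97.0 with DMSO, so that the GSI values fell inside the DMSO range. WWC1, which encodes the scaffold KIBRA, had a median of -0.15 (guides between -0.52 and 0.35). FRMD6, which encodes a FERM-domain protein, had a median of -0.26 (guides between -1.06 and 1.53). Its highest guide, HGLibB_17999, had 86.2, 261 and 117 normalized counts with GSI, against 9.86, 59.6 and 91.1 with DMSO, and the groups overlapped (unadjusted edgeR p of 0.0366). AMOT had a median of -0.17 (guides between -1.12 and 0.19). The lowest AMOT guide, HGLibB_01812, had 127, 46.1 and 184 normalized counts with GSI, against 389, 203 and 182 with DMSO (log2 fold change -1.12, unadjusted edgeR p of 0.0368). It was the only Hippo guide on the lower side at an unadjusted p under 0.05, and its groups overlapped in GSI replicate 3.

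The TAO kinases phosphorylate STK3 and STK4 and so sit at the top of the cascade, with further roles in p38 and JNK stress signalling. TAOK1 (chr17:29390363-29551903, GRCh38, plus strand) had the lowest RRA p of all Hippo genes in GSI against DMSO. Its p on the higher side was 0.000228, rank 5 of 18570 genes, and it did not pass the correction (adjusted p of 0.538). The mean normalized count over its guides was 284, 468 and 348 with GSI, against 146, 245 and 332 with DMSO, and these groups overlapped. The lowest value was that of DMSO replicate 1 and the highest that of GSI replicate 2. The median log2 fold change was 0.43 (SD 0.87 over guides), with 3 guides higher and 3 lower.

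The 3 higher TAOK1 guides were the only Hippo guides with an unadjusted edgeR p under 0.05 and groups that did not overlap in GSI against DMSO. HGLibA_48306 had 380, 634 and 722 normalized counts with GSI, against 96.4, 218 and 353 with DMSO (log2 fold change 1.38, unadjusted p of 0.00377). HGLibB_48247 had 294, 852 and 373 with GSI, against 241, 44.2 and 238 with DMSO (1.54, unadjusted p of 0.00739). HGLibA_48307 had 362, 583 and 348 with GSI, against 73.4, 327 and 271 with DMSO (0.95, unadjusted p of 0.0481). For each of them every GSI library was above every DMSO library. The other TAOK1 guides had negative log2 fold changes. HGLibA_48305 had 287, 235 and 338 with GSI, against 312, 375 and 484 with DMSO (-0.44), HGLibB_48246 was at -0.17 and HGLibB_48248 at -0.10. The adjusted p of all 6 guides was 1.00.

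The TAOK1 ranking depended on the libraries used. Without GSI replicate 2 its RRA p was 0.0154 (adjusted p of 0.944), without DMSO replicate 1 it was 0.0115 (adjusted p of 0.870), and without GSI replicate 1 it was 1.02e-05 (adjusted p of 0.0943). With counts summed per gene, edgeR gave an unadjusted p of 0.0114 and an adjusted p of 1.00. The other TAO kinases did not share the rank of TAOK1. TAOK2 had a median of -0.07 (guides between -0.63 and 0.98) and an RRA p of 0.323 on the higher side. TAOK3 had a median of -0.09 (guides between -0.44 and 0.64) and an RRA p of 0.505 on the higher side.

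Growth without the drug was read from DMSO against T0, and growth with it from GSI against T0. These comparisons share the T0 libraries, and GSI against DMSO shares libraries with both, so agreement between them is not independent. No Hippo guide passed an adjusted p of 0.05 in edgeR in either comparison (0% of all guides in each). At an unadjusted edgeR p under 0.05, 5 of 118 Hippo guides were lower and 3 higher in DMSO against T0, beside 3.55% and 4.19% of all guides. In GSI against T0, 5 were lower and 4 higher, beside 3.99% and 4.72%. DESeq2 called 6 Hippo guides in DMSO against T0, beside 5.7% of all guides, and 6 in GSI against T0, beside 6.77%. No Hippo gene passed an adjusted RRA p of 0.05, beside 0.0323% of all genes on the lower side of DMSO against T0 and 0% elsewhere. At an unadjusted RRA p under 0.05, no Hippo gene was lower and TEAD4 was higher in DMSO against T0, beside 6.29% and 5.3% of all genes. In GSI against T0 none was lower, and TAOK1 and TEAD4 were higher, beside 5.88% and 5.39%.

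The median log2 fold change of the Hippo guides was 0.19 in DMSO against T0, beside 0.00 for all guides and 0.25 for the non-targeting controls. In GSI against T0 it was 0.18, beside -0.02 for all guides and 0.18 for the non-targeting controls. In each comparison against T0 the median of the Hippo guides lay closer to the controls that cut nothing than to the library as a whole. Effectors and upstream members had medians of 0.14 and 0.22 in DMSO against T0, and of 0.22 and 0.18 in GSI against T0. In single libraries, the median level of the effector guides, relative to the mean of T0, was 0.36, 0.22 and 0.16 with GSI, 0.54, 0.27 and 0.31 with DMSO, and 0.39 and -0.39 in the T0 aliquots. For upstream guides it was 0.05, 0.24 and 0.17 with GSI, 0.24, 0.12 and 0.30 with DMSO, and -0.27 and 0.27 at T0. For both lists the T0 aliquots differed from each other by more than any culture differed from their mean.

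Among the effectors, TEAD4 had the lowest RRA p against T0. Its mean normalized count (chr12:2959330-3040676, GRCh38, plus strand) was 212, 218 and 187 with GSI, 232, 204 and 204 with DMSO, and 155 and 122 at T0, so that all 6 cultures lay above both aliquots. Wholly higher gene means were found for TEAD3 and TEAD4 in GSI against T0 and for LATS1, TEAD3 and TEAD4 in DMSO against T0, beside 11.4% and 12.4% of all genes. Wholly lower means were found for AMOT, FRMD6, LATS2 and YAP1 in GSI against T0 and for WWTR1 in DMSO against T0, beside 19.2% and 17.1%. With log2(normalized count + 1) averaged over guides, the groups overlapped for FRMD6, LATS2 and YAP1 in GSI against T0. They also overlapped for LATS1, TEAD3 and WWTR1 in DMSO against T0. AMOT then lay wholly above T0 in both comparisons, at 6.97, 6.48 and 6.85 with GSI against 6.00 and 6.26 at T0. TEAD4 stayed above in both comparisons, and TEAD3 in GSI against T0. On that scale SAV1 also lay wholly above in both, TEAD1, LATS1 and TAOK1 in GSI against T0, and TEAD2 in DMSO against T0. The share of all genes that lay wholly above T0 on it was not computed. The TEAD4 guides had a median log2 fold change of 0.64 in GSI against T0 (SD 0.67, lowest 0.15, highest 1.70, all 6 higher, RRA p of 0.0470, adjusted p of 0.915). In DMSO against T0 the median was 1.04 (SD 0.80, lowest -0.15, highest 2.14, 5 of 6 higher, RRA p of 0.0438, adjusted p of 0.940). The highest of them, HGLibB_48877, had 154, 152 and 84.6 with GSI, 289, 88.5 and 153 with DMSO, and 78.6 and 0.949 at T0. With 1 T0 aliquot left out, the spread in the fit came from the 3 cultures alone, and the remaining aliquot was assumed to vary like them. In such fits the RRA p of TEAD4 in GSI against T0 was 0.213 without T0 replicate 1 and 0.335 without T0 replicate 2. In DMSO against T0 it was 0.164 without T0 replicate 1 and 0.215 without T0 replicate 2. An RRA alpha of 0.1 gave 0.344 in GSI against T0, and p was also above 0.05 there without GSI replicate 1 (0.0714) or GSI replicate 2 (0.0578), with library totals (0.0900), with factors from non-targeting controls (0.0608) and with no count minimum (0.0522), and in DMSO against T0 without DMSO replicate 3 (0.0847).

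YAP1 had a median of -0.08 in GSI against T0 (guides between -2.79 and 0.61) and of 0.67 in DMSO against T0 (guides between -3.27 and 1.50). WWTR1 had 0.17 in GSI against T0 (guides between -2.82 and 0.55) and -0.36 in DMSO against T0 (guides between -2.88 and 0.52). A single WWTR1 guide, HGLibB_54389, set both lower ends, with 32.3, 50.9 and 1.04 normalized counts with GSI, 14.2, 28.9 and 37.6 with DMSO, and 121 and 277 at T0. All 6 cultures lay below both aliquots for it, with unadjusted edgeR p-values of 0.0394 in GSI against T0 and 0.00897 in DMSO against T0. The other WWTR1 guides lay between -0.46 and 0.55 in both comparisons.

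TEAD1 had medians of -0.19 in GSI against T0 (guides between -1.68 and 7.91) and -0.06 in DMSO against T0 (guides between -5.22 and 8.73). The upper end came from HGLibA_48927, which had 32.3, 23.8 and 30.3 normalized counts with GSI, 81.1, 36.1 and 37.6 with DMSO, and 0 in both T0 aliquots. The fitted value of such a guide depends on the prior count. Against a floor of 3 counts in each T0 library, HGLibA_48927 was at least 10.8-fold higher with GSI and at least 19.3-fold higher with DMSO. The lower end came from HGLibB_48867, which had 105 normalized counts in T0 replicate 2 but 0.837 in T0 replicate 1. TEAD2 had medians of -0.97 in GSI against T0 (guides between -1.82 and 1.78) and -0.19 in DMSO against T0 (guides between -1.36 and 1.79). TEAD3 had medians of 0.20 in GSI against T0 (guides between -0.45 and 2.01) and -0.11 in DMSO against T0 (guides between -1.09 and 2.21). Its guide HGLibB_48872 had 140, 133 and 325 with GSI, 220, 140 and 331 with DMSO, and 53.5 and 45.6 at T0, with unadjusted edgeR p-values of 0.0170 in GSI against T0 and 0.0104 in DMSO against T0. DESeq2 called that guide in GSI against T0 (adjusted p of 0.0149) and in DMSO against T0 (adjusted p of 0.00381).

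Among the core kinases, LATS2 had medians of -0.98 in GSI against T0 (guides between -2.19 and 3.10) and 0.22 in DMSO against T0 (guides between -1.70 and 3.65). The LATS2 guide HGLibB_26030 had 48.5, 211 and 92.9 normalized counts with GSI, 119, 116 and 134 with DMSO, and 417 and 383 at T0. All 6 cultures lay below both aliquots, at log2 fold changes of -1.76 in GSI against T0 (unadjusted edgeR p of 0.0178) and -1.70 in DMSO against T0 (unadjusted p of 0.00494, DESeq2 adjusted p of 0.000255). Another LATS2 guide, HGLibB_26031, was at 0.23 in GSI against T0 and 0.58 in DMSO against T0. LATS1 had medians of 0.54 in GSI against T0 (guides between -3.12 and 1.48) and 0.76 in DMSO against T0 (guides between -1.09 and 1.72). STK3 had medians of 0.27 in GSI against T0 (guides between -1.52 and 1.05) and 0.38 in DMSO against T0 (guides between -0.85 and 1.22). STK4 had medians of 0.30 in GSI against T0 (guides between -1.19 and 1.99) and 0.35 in DMSO against T0 (guides between -1.29 and 0.82). Its lowest guide, HGLibA_47511, had 197, 81.1 and 123 with GSI, 150, 120 and 103 with DMSO, and 301 and 307 at T0.

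Adaptors and upstream regulators had medians on both sides of 0 against T0. SAV1 was at 0.48 in GSI against T0 (guides between -0.88 and 1.36) and 0.49 in DMSO against T0 (guides between -0.15 and 2.15). MOB1A was at -0.27 in GSI against T0 (guides between -1.42 and 0.90) and -0.03 in DMSO against T0 (guides between -2.08 and 1.31), and MOB1B at 0.17 (guides between -0.24 and 0.64) and 0.33 (guides between -0.84 and 0.66). NF2 was at 0.07 in GSI against T0 (guides between -0.53 and 1.62) and 0.11 in DMSO against T0 (guides between -0.86 and 1.48). The mean normalized count of NF2 was 81.3 and 182 in the T0 aliquots, a wider range than that of its 6 cultures. WWC1 was at 0.37 in GSI against T0 (guides between -2.09 and 1.89) and 0.33 in DMSO against T0 (guides between -1.79 and 2.34). Its guide HGLibA_54439 had 128, 96.2 and 82.5 with GSI, 175, 111 and 131 with DMSO, and 30.1 and 24.7 at T0, and DESeq2 called it in GSI against T0 (adjusted p of 0.0240) and in DMSO against T0 (adjusted p of 0.00481).

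FRMD6 was at -0.29 in GSI against T0 (guides between -1.36 and 0.74) and -0.11 in DMSO against T0 (guides between -1.51 and 1.78). Its guide HGLibA_18022 had 133, 93.8 and 100 normalized counts with GSI, 77.8, 122 and 187 with DMSO, and 261 and 298 at T0, with an unadjusted edgeR p of 0.0199 in GSI against T0. AMOT was at -0.15 in GSI against T0 (guides between -1.50 and 0.42) and 0.07 in DMSO against T0 (guides between -1.08 and 1.03). Its guide HGLibA_01814 had 143, 58.0 and 176 with GSI, 162, 148 and 193 with DMSO, and 435 and 274 at T0, with an unadjusted edgeR p of 0.0259 in GSI against T0. For both guides all 6 cultures lay below both aliquots. Over all Hippo guides, 13 lay wholly below T0 and 18 wholly above in GSI against T0, beside 13.6% and 15.7% of all guides. In DMSO against T0, 13 lay wholly below and 21 wholly above, beside 13.1% and 14.9%.

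TAOK1 had the highest median of the 20 genes in GSI against T0. It was 1.00 (SD 0.76, lowest -0.36, highest 1.58), with 5 of 6 guides higher, an RRA p of 0.00906 and an adjusted p of 0.851. In DMSO against T0 it was 0.09 (SD 0.84, lowest -0.74, highest 1.36), with 3 of 6 guides higher and an RRA p of 0.335. DESeq2 called HGLibA_48306 and HGLibB_48247 in GSI against T0 (adjusted p of 0.0307 and 0.0441) and neither in DMSO against T0. The mean normalized count of TAOK1 at T0 was 285 and 126, and without T0 replicate 2 its RRA p in GSI against T0 was 0.262, in a fit whose spread came from the GSI cultures alone. TAOK2 had medians of -0.17 in GSI against T0 (guides between -1.03 and 1.91) and 0.00 in DMSO against T0 (guides between -1.08 and 0.93). TAOK3 had medians of 0.21 in GSI against T0 (guides between -1.21 and 0.85) and 0.14 in DMSO against T0 (guides between -0.78 and 1.05).

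A further 49 genes linked to the pathway, among them angiomotin-like proteins, RASSF and MAP4K families, polarity proteins, STRIPAK subunits and YAP1 target genes, gave no call either. In GSI against DMSO, 1 was lower and 3 were higher at an unadjusted RRA p under 0.05, beside 5.13% and 5% of all genes. DLG1, a polarity scaffold, had the lowest p on the lower side (0.00397, adjusted p of 0.941, median -0.71), followed by CSNK1E, a casein kinase (0.0525, median -0.61). ANKRD1, a YAP1 target gene, and AJUBA, a LIM protein that binds LATS kinases, had the lowest p on the higher side (0.0110 and 0.0118), with medians of 0.24 and -0.10. In DMSO against T0, 3 were lower and 2 higher, beside 6.29% and 5.3% of all genes, led by SIKE1 and STRN4, components of STRIPAK complexes (0.0162 and 0.0350), and by DLG1 and PTPN14, a phosphatase that binds YAP1 (0.00733 and 0.0332). In GSI against T0 none passed on either side, beside 5.88% and 5.39% of all genes, and the lowest p-values were those of RASSF5 and RASSF6 on the lower side (0.0785 and 0.0836) and of PTPN14 and FAT1 on the higher side (0.0756 and 0.0859). DLG1 was thus on the lower side in GSI against DMSO and on the higher side in DMSO against T0, 2 comparisons that share the DMSO libraries.

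The number of calls against T0 changed when 1 aliquot was left out, in fits where T0 was 1 sample and the spread came from the 3 cultures alone. Without T0 replicate 1, edgeR called 14 Hippo guides in DMSO against T0 and 25 in GSI against T0, beside 7.14% and 18.1% of all guides, and without T0 replicate 2 it called 0 and 5, beside 4.71% of all guides in GSI against T0. Where in each gene a guide cuts and how well it cuts were not analysed here, and neither was their part in the spread between guides of 1 gene.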

How the data were processed

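Genomic DNA of 8 MB157R libraries was amplified by PCR and sequenced on an Illumina NextSeq 500 instrument. Per the labels, the authors used bcl2fastq 2.19 and FastQC 0.11.5 and assigned reads to guides with MAGeCK 0.5.9.2, and the deposited count table holds raw read counts per guide without molecular identifiers. The deposited normalized table was not used. Guides with a mean count of at least 10 over 8 libraries were tested, which removed 2609 guides, 2 of them Hippo guides (LATS2 and MOB1A).

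Counts were scaled by median-ratio size factors and tested with edgeR 4.0.16 (quasi-likelihood, limma 3.58.1) in R 4.3.3, each fit holding only the groups compared. DESeq2 1.42.0 was an alternative. Genes with at least 4 tested guides were tested by RRA on one-sided guide p-values (alpha of 0.25, exact null distribution), and p-values were adjusted over all guides or genes by the Benjamini-Hochberg method, called under 0.05. MAGeCK's own test was not used. Gene-level fold changes are medians over guides, with the SD over guides. List levels are medians of log2(normalized count + 1). Both tests were also run on simulated data, and the share of known changes recovered there is not reported here. Gene positions come from GENCODE v44, build GRCh38, and the build behind the guide library was not given in the sources used here.

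The 20 genes, the 49 further genes and the tests were chosen with earlier results of these data known. All 20 genes are named. Guides are named by the 3 lowest p-values per side and comparison, and further genes by the 2 lowest. Guides and values named beyond that (FRMD6, LATS2, SAV1, TAOK1, TEAD1, TEAD4 and YAP1 guides) were chosen after their values were seen. Alternatives covered size factors (library totals, non-targeting controls, TMM), count minimums of 0 and 50, DESeq2, 1 fit of 8 libraries, the replicate block, leaving out each library, an RRA alpha of 0.1 and counts summed per gene.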

Additional observations from a re-analysis of the deposited data

Results flagged for a closer look

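The LATS2 guide HGLibB_26029 had too few counts to be tested, but every GSI library was above every DMSO library. It was chosen for that separation, and the share of untested guides with one was not counted. Its raw counts were 9, 13 and 25 in GSI replicates 1, 2 and 3, with a mean of 15.7, against 0, 2 and 1 in DMSO replicates 1, 2 and 3, with a mean of 1.00, and 0 in both T0 aliquots. With no count minimum, edgeR gave it an unadjusted p of 0.0498 and an adjusted p of 1.00 in GSI against DMSO. Against a floor of 3 counts in each T0 library it was at least 6.04-fold higher with GSI, whereas the mean with DMSO was under that floor. The 5 tested LATS2 guides all had negative log2 fold changes in GSI against DMSO. The part of low counts in this difference was not tested.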

How the results depend on the processing

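No Hippo gene was called under the alternatives in which it could be tested, in any of the 3 comparisons (LATS2 and TEAD1 were not tested with a count minimum of 50), and no Hippo guide was called in GSI against DMSO under any. Against T0, DESeq2 called 6 Hippo guides in DMSO against T0 and 6 in GSI against T0, and leaving out 1 library gave between 0 and 14 calls in DMSO against T0 and between 0 and 25 in GSI against T0. DESeq2 thus called 5.08% of Hippo guides in each, beside 5.7% (DMSO against T0) and 6.77% (GSI against T0) of all guides. The highest counts came without T0 replicate 1, where T0 was 1 sample, assumed to vary like the cultures that gave all the spread. Guides outside the pathway were also called in those fits, at the shares given above. The cause of the highest counts was not tested. The median log2 fold change of the Hippo guides in GSI against DMSO was -0.31 with library totals, where the median of all guides was -0.22. In DMSO against T0 it was -0.069 with factors from non-targeting controls, where the median of all guides was -0.26, and between 0.13 and 0.48 with 1 library left out, the highest without T0 replicate 2. Changes against T0 are thus relative to the guides used for scaling.

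Deviations of GSI and DMSO libraries with the same replicate number correlated at 0.28, 0.064 and 0.12. Each GSI library correlated best with its own number, but not every pair passed 0.1, so the numbers were not taken to pair the cultures. With the replicate block the median of the Hippo guides in GSI against DMSO was -0.05, 0 Hippo guides and 0 Hippo genes were called, and TAOK1 had an RRA p of 3.02e-05 (adjusted p of 0.561). The adjusted p of TAOK1 ran between 0.0943 and 1.00 over 16 alternatives. The smallest change of a single guide that 2 T0 aliquots and 3 cultures per group could show was not measured.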
